A study of Homo sapiens with 6 samples.

Results

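Voltage-gated calcium channel subunits were followed as a group of 10 genes: 6 pore-forming alpha1 subunits (CACNA1A, CACNA1B, CACNA1C, CACNA1D, CACNA1G and CACNA1H), 2 cytoplasmic beta subunits (CACNB1 and CACNB3) and 2 alpha2delta subunits (CACNA2D1 and CACNA2D2). The members were given by gene symbol and were matched to the symbol column of the authors' merged read-count table, in which all 10 were found. The per-library tables, from which the counts were taken, held 56811 genes. They were chosen on earlier results of these same libraries, so their differences between the groups are given as a description. The adjusted p-values beside them come from the fit over every tested gene and are no independent evidence of a direction.

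A voltage-gated calcium channel opens when the membrane depolarises and lets calcium into the cell, where it triggers contraction, secretion, enzyme activity and gene expression. The alpha1 subunit forms the pore and sets the channel class: L-type (CACNA1C, the main channel of heart muscle, and CACNA1D, known for cardiac pacemaking and hearing), P/Q-type (CACNA1A) and N-type (CACNA1B), which serve transmitter release at synapses, and T-type (CACNA1G and CACNA1H), which open at low voltage. A beta subunit binds the pore inside the cell and helps it reach the membrane, and an alpha2delta subunit, the binding site of gabapentin, is anchored on the outer face. HEK293 cells, derived from human embryonic kidney, are widely used to express these channels from plasmids because their own calcium currents are small.

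Promoter windows of RefSeq (GRCh38.p14, from 250 bases before to 50 bases after a gene start) were matched for 8 of the 10 members (all but CACNA1G and CACNA1H), 11 windows in all. The 3 printed here belong to CACNA1C, the one member past both thresholds described later, to CACNA1D, the other L-type pore gene, and to CACNA2D1, the member with the most reads. They are written 5′ to 3′ on the strand of the gene, CACNA1C at chr12:2052737-2053036 (plus strand), CACNA1D at chr3:53494361-53494660 (plus strand) and CACNA2D1 at chr7:82443907-82444206 (minus strand), and capitals mark 2 motifs on either strand. The first is GGGCGG, which Sp1 and its relatives are known to bind. The second is CCACCC, known from sites of the related Krüppel-like factors. The RefSeq starts of CACNA1C and CACNA1D lie inside their longer Gencode gene models.
CACNA1C promoter: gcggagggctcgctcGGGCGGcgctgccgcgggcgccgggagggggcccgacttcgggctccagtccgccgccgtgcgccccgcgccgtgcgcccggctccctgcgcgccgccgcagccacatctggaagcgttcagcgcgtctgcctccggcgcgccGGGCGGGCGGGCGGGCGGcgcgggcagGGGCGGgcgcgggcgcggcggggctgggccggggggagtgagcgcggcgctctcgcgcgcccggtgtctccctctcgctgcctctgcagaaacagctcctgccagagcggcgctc
CACNA1D promoter: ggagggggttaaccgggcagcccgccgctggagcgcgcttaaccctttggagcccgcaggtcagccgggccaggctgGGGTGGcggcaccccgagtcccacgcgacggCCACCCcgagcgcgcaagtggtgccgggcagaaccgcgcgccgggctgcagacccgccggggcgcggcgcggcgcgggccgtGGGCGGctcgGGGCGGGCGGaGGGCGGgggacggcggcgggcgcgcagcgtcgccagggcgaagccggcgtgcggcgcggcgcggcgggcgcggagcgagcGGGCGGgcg
CACNA2D1 promoter: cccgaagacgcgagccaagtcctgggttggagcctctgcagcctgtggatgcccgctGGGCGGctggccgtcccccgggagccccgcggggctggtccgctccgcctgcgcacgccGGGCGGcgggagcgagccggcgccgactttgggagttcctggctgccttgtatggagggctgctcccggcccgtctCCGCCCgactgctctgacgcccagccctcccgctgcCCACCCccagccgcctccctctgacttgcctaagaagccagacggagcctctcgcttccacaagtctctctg
All 3 are rich in G and C, at 82.3% for CACNA1C, 83.0% for CACNA1D and 72.3% for CACNA2D1, against a median of 58.7% over 35116 RefSeq promoter windows of the same 300 bases. The CACNA1C window held 6 GGGCGG matches on either strand, of which 4 ran into each other in one stretch that began 92 bases before the start, and no CCACCC. The CACNA1D window held 5 matches to GGGCGG and 2 to CCACCC, and the CACNA2D1 window held 3 and 1. Over all 11 member windows, 9 held GGGCGG and 5 held CCACCC, against 45.0% and 34.3% of all windows, and matches of the 2 motifs overlapped once, in the CACNA1B window. Neither TATAAA nor TGACTCA, an AP-1 site, was found on either strand of a member window, while 11.5% and 4.95% of all windows held them. These matches describe the letters of each window, whose GC content differs widely, and no binding was measured here.

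Total RNA was sequenced from 6 libraries of this human cell line, named HEK293T in the sample labels and HEK293 in the series' design text. The 3 sh-control libraries came from cells carrying a control short-hairpin RNA and the 3 sh-RREB1 libraries from cells carrying a short hairpin against RREB1, a zinc finger transcription factor, all grown in DMEM with 10% fetal bovine serum. The hairpins were delivered by lentivirus, and nothing in the labels says that libraries of a group came from separate cultures, so p-values measure the spread between these libraries only. The study asked which genes differ when RREB1 is lowered. Reads assigned to genes ranged from 23362197 to 33044061 in sh-control and were 23665991, 26145877 and 12257054 in sh-RREB1 replicates 1, 2 and 3. Reads mapping to several places made up 52.1% of sh-RREB1 replicate 3 and 3.66% to 7.63% of the other libraries. RREB1 itself, on chromosome 6 at 7107597 to 7251980 (hg38), was measured at 27.1, 25.1 and 26.5 counts scaled to a common library size (CPM) in sh-control replicates 1, 2 and 3 and at 23.7, 24.6 and 23.1 CPM in sh-RREB1. Its log2 fold change was −0.14 (95% confidence interval −0.43 to 0.15) with an adjusted p of 0.489 by edgeR. Every sh-RREB1 library was below every sh-control library, as was so for 4711 of all 23617 tested genes. In a fit corrected for GC content and gene length, described further on, the log2 fold change of RREB1 was −0.36 (95% interval −0.63 to −0.096, adjusted p 0.0539). This was also not past the threshold, and the groups are called here by their labels. Of 5 genes typical of HEK293 cells, 5 were read in every library, led by VIM, and their summed level ran from 388.3 to 420.7 CPM in sh-control and from 628.9 to 716.3 CPM in sh-RREB1. Of 7 markers of other cell types none was at 0 in all libraries, and their sum ran from 2.08 to 3.58 CPM in sh-control and from 2.69 to 5.19 CPM in sh-RREB1. COL1A1, a fibroblast collagen, had the largest rise among them, from 0.478 to 1.89 CPM on average. Its part in any result below was not tested.

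The subunits were transcribed at low levels. Per kilobase of exon, the accessory subunit CACNA2D1 stood highest in sh-control, with a mean of 3.60 ± 0.910 CPM per kilobase (RPKM, SD, n = 3), followed by CACNB3 at 0.732 ± 0.212 RPKM. CACNA2D2, at 0.555 ± 0.172 RPKM, overlapped with CACNB3 above it and with CACNA1D, the highest pore subunit, below it at 0.377 ± 0.0859 RPKM. CACNB1 had 0.329 ± 0.116 RPKM and overlapped with CACNA1D. The remaining pore genes lay close together, with means of 0.134 RPKM for CACNA1B, 0.131 RPKM for CACNA1H, 0.101 RPKM for CACNA1G and 0.0782 RPKM for CACNA1C, and each overlapped with its neighbour in that order. The order depends on the length used, which counts the exons of all transcripts of a gene. Divided by the canonical transcript alone, CACNA1D stood above CACNA2D2, and CACNA1C came first of these pore genes. Mean shares of the summed pore subunit level in sh-control were then 10.4% for CACNA1C, 9.75% for CACNA1H, 9.57% for CACNA1B and 8.38% for CACNA1G. CACNA1A was at the floor of detection in these libraries, with 6 reads in all. In sh-RREB1 the order began in the same way, CACNA2D1 at 5.93 ± 1.52 RPKM and CACNB3 at 1.33 ± 0.227 RPKM. Here CACNA1H, at 0.385 ± 0.151 RPKM, overlapped with CACNA1D at 0.364 ± 0.0182 RPKM. CACNA1C, at 0.196 ± 0.0243 RPKM, overlapped with CACNA1B at 0.166 ± 0.0400 RPKM. Exons measure 19199 bases in CACNA1D and 25552 in CACNA1C, and their canonical transcripts 9369 and 13744. Divided by canonical length instead, neither pair overlapped. Mean shares of the summed pore subunit level in sh-RREB1 were then 40.8% for CACNA1D, 21.4% for CACNA1H, 19.8% for CACNA1C and 9.01% for CACNA1B. In a bulk sample such as these, fewer cells with a transcript and less transcript per cell cannot be told apart.

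**Figure D1:**
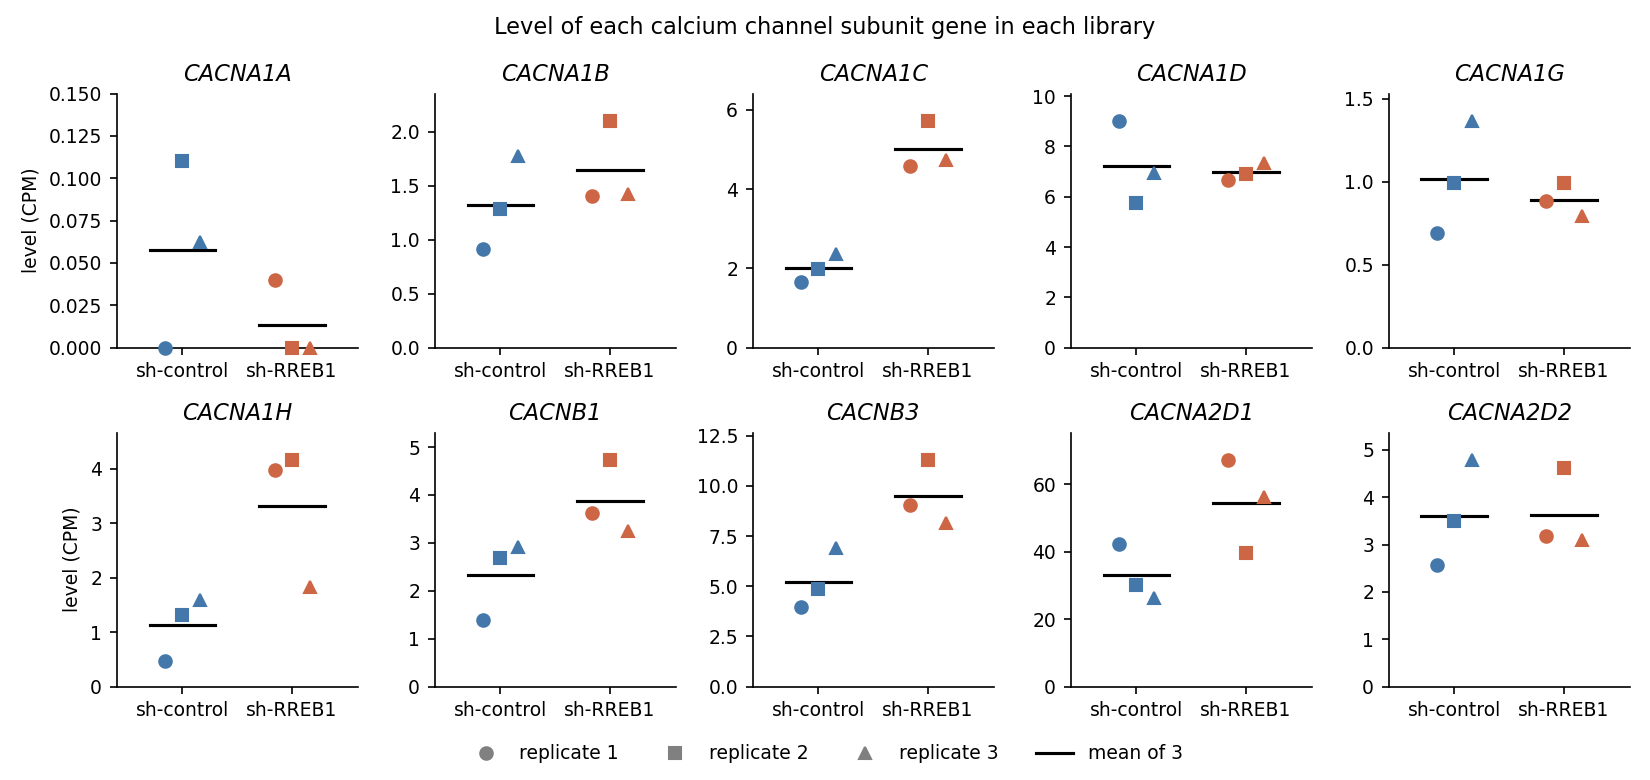
Level of each of the 10 subunit genes in CPM (linear axes from 0, a scale of its own for each gene), with one point per library, the marker shape giving the replicate number, blue for sh-control and orange for sh-RREB1, and a black bar at the mean of 3 libraries. CACNA1C, CACNA1H, CACNB1 and CACNB3 show no overlap between the groups, and CACNA1A lies at or near 0 throughout.

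Of the 10 members, 9 passed the minimum of 10 reads summed over the libraries. CACNA1C was past both thresholds (adjusted p below 0.01 and a change of more than 1 on the log2 scale) and higher in sh-RREB1, no member was past them and lower, and 8 tested members were not past them. Over all 23617 tested genes, 3.38% were past both thresholds. In 4 members, CACNA1C, CACNA1H, CACNB1 and CACNB3, every sh-RREB1 library was above every sh-control library, which held for 21.0% of all tested genes. The median log2 fold change of the 9 tested members was 0.72 and that of all tested genes 0.01, and 7 of the 9 were above 0, as were 50.9% of all tested genes. At the looser adjusted p of 0.05, 3 members fell below it, CACNA1C, CACNA1H and CACNB3, as did 19.4% of all tested genes. Nothing about the family is read from these counts, since the members were chosen with the contrast known.

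Among the L-type pore genes, CACNA1C (chromosome 12, 1970772 to 2697950, plus strand; gene positions here are all on hg38) had 38, 54 and 76 reads in sh-control replicates 1, 2 and 3 and 114, 150 and 60 reads in sh-RREB1. Scaled to library size these were 1.65, 1.98 and 2.36 CPM against 4.58, 5.73 and 4.75 CPM. The lowest sh-RREB1 library was above the highest sh-control library, although sh-RREB1 replicate 3 was the shallowest of the 6. The log2 fold change was 1.32 (SE 0.21), a 2.50-fold higher level with a 95% interval of 1.79- to 3.49-fold, and an adjusted p of 0.00592 by edgeR. The call depended on which library was left out. It stood without sh-control replicate 1 (adjusted p 0.00333, log2 fold change 1.17). The adjusted p was 0.0404 and 0.0111 when sh-control replicates 2 and 3 were left out in turn. When sh-RREB1 replicates 1, 2 and 3 were left out in turn, it was 0.0199, 0.0208 and 0.0318. The log2 fold change stayed between 1.17 and 1.43 in these 6 fits.

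CACNA1D (chromosome 3, 53328963 to 53813733, plus strand), the second L-type gene, had 208, 157 and 223 reads in the control libraries and 166, 181 and 93 in sh-RREB1, or 9.02, 5.77 and 6.94 CPM against 6.67, 6.91 and 7.36 CPM. The groups overlapped, and the sh-RREB1 libraries fell inside the range of sh-control. The log2 fold change was −0.05 (95% interval −0.51 to 0.40, adjusted p 0.884 by edgeR), so a difference of the size seen in CACNA1C lay outside the interval. Read for read, CACNA1C had 0.183, 0.344 and 0.341 reads for each CACNA1D read in the control libraries and 0.687, 0.829 and 0.645 in sh-RREB1, a ratio taken within each library that does not depend on scaling. All 3 sh-RREB1 ratios were above all 3 sh-control ratios, without a correction for GC content. CACNA1D overlaps genes on the opposite strand, and 35.8% of the reads over its exons on either strand lay on the opposite one and were not counted to it.

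Of the T-type pore genes, CACNA1H (chromosome 16, 1153106 to 1221771, plus strand) had 11, 36 and 51 reads in the control libraries and 99, 109 and 23 in sh-RREB1, which is 0.477, 1.32 and 1.59 CPM against 3.98, 4.16 and 1.82 CPM. The groups did not overlap, but the gap between the highest sh-control and the lowest sh-RREB1 library was small, and the spread within each group was wide. Its log2 fold change of 1.56 (SE 0.42, 95% interval 0.60 to 2.52) was the largest of the 9 tested members, with an adjusted p of 0.0336. CACNA1G (chromosome 17, 50560715 to 50627474, plus strand) had 16, 27 and 44 reads against 22, 26 and 10, and at 0.694, 0.992 and 1.37 CPM in the control libraries and 0.884, 0.993 and 0.791 CPM in sh-RREB1 the groups overlapped. Its log2 fold change was −0.20 (95% interval −0.91 to 0.52, adjusted p 0.713 by edgeR). The number of CACNA1H reads for each CACNA1G read was 0.688, 1.33 and 1.16 in the control libraries and 4.50, 4.19 and 2.30 in sh-RREB1, again without overlap. The exons of CACNA1H hold 66.4% GC and those of CACNA1G 59.3%. This ratio was not corrected for the trend with GC content described further on.

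Of the synaptic pore genes, CACNA1B (chromosome 9, 137877782 to 138124624, plus strand) had 21, 35 and 57 reads in the control libraries and 35, 55 and 18 in sh-RREB1, at 0.911, 1.29 and 1.77 CPM against 1.41, 2.10 and 1.42 CPM. The groups overlapped, with a log2 fold change of 0.31 (95% interval −0.38 to 1.01, adjusted p 0.523). CACNA1A (chromosome 19, 13206442 to 13633025, minus strand), the P/Q-type pore gene, had 0, 3 and 2 reads in the control libraries and 1, 0 and 0 in sh-RREB1. It was below the read minimum and not tested, and with so few reads no difference between the groups was detectable.

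As a share of the summed per-kilobase level of all 10 pore subunit genes of the family, CACNA1D held the most in sh-control, 42.8% ± 13.1 (SD, n = 3), and CACNA1C held 8.69% ± 0.637. In sh-RREB1 the mean shares were 29.7% ± 6.56 for CACNA1D and 15.8% ± 1.99 for CACNA1C, and of this pair the CACNA1C shares alone did not overlap between the groups. CACNA1H went from 14.3% ± 6.43 to 30.0% ± 8.39 without overlap, and CACNA1G from 11.1% ± 2.44 to 7.10% ± 0.456, also without overlap. CACNA1B held 14.7% ± 3.13 and 13.2% ± 1.80, and CACNA1A at most 0.298% of any library. By class, the L-type genes together made up 54.6% ± 12.4 in the control libraries and 46.8% ± 8.13 in sh-RREB1, and the T-type genes 28.9% ± 9.20 and 38.4% ± 8.42, with overlapping libraries in both. Shares sum to a fixed total, so a larger share of one gene lowers the others, and these shares were not corrected for the trend with GC content described further on.

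**Figure D2:**
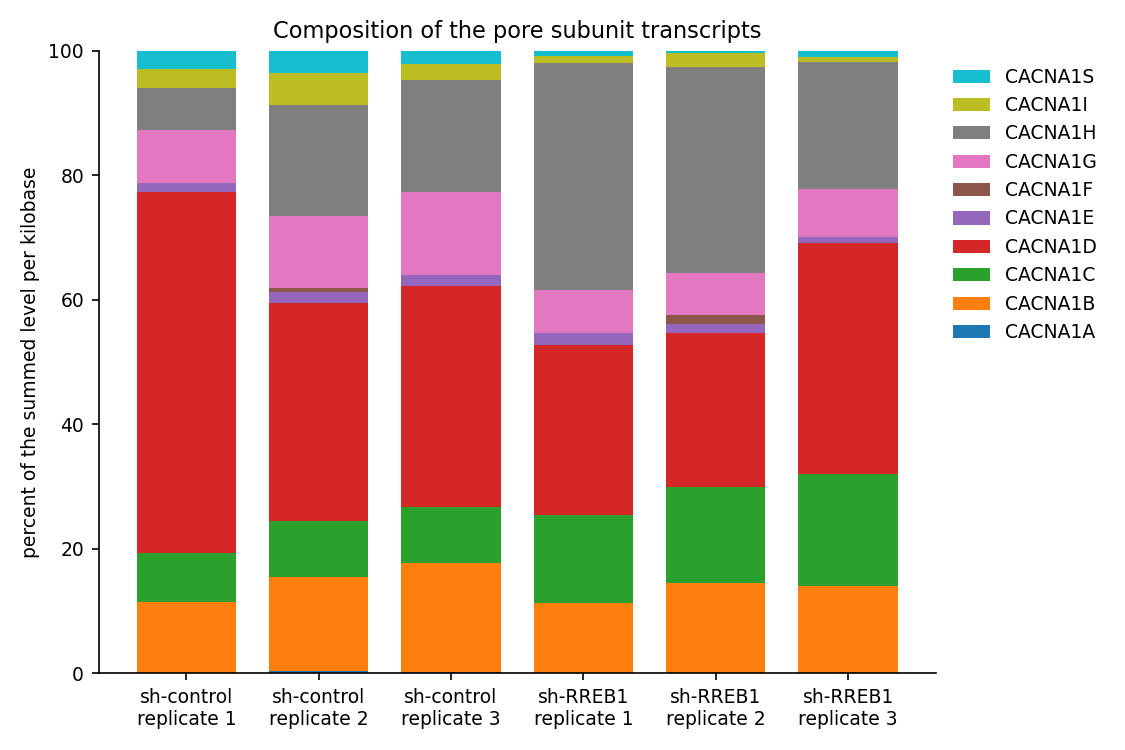
Stacked bars, one per library, of the share of each pore subunit gene in their summed level per kilobase of exon (percent, linear axis from 0). CACNA1C (green) takes 7.96% to 9.07% of the sh-control libraries and 14.1% to 18.0% of the sh-RREB1 libraries, and CACNA1H (grey) is smallest in sh-control replicate 1, at 6.83%.

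In both beta subunit genes the groups did not overlap. CACNB3 (chromosome 12, 48813794 to 48828941, plus strand) had 91, 132 and 222 reads in the control libraries and 225, 296 and 103 in sh-RREB1, at 3.95, 4.85 and 6.91 CPM against 9.04, 11.3 and 8.15 CPM. The sh-RREB1 libraries were all above sh-control, with a log2 fold change of 0.86 (SE 0.24, 95% interval 0.31 to 1.40) and an adjusted p of 0.0374. CACNB1 (chromosome 17, 39173453 to 39197702, minus strand), the beta subunit known from skeletal muscle, had 32, 73 and 94 reads against 90, 124 and 41, at 1.39, 2.68 and 2.92 CPM and 3.62, 4.74 and 3.24 CPM. The lowest sh-RREB1 library was a little above the highest sh-control library, and the log2 fold change was 0.73 (SE 0.29, 95% interval 0.06 to 1.39) with an adjusted p of 0.115. CACNB3 had 2.84, 1.81 and 2.36 reads for each CACNB1 read in the control libraries and 2.50, 2.39 and 2.51 in sh-RREB1, so the proportion of these 2 genes overlapped between the groups.

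Of the alpha2delta subunits, CACNA2D1 (chromosome 7, 81946444 to 82443956, minus strand) had 977, 824 and 848 reads in the control libraries and 1674, 1038 and 712 in sh-RREB1, more than the other 9 members together in each library but sh-control replicate 3 and sh-RREB1 replicate 2. Scaled, these were 42.4, 30.3 and 26.4 CPM against 67.2, 39.6 and 56.3 CPM. One sh-RREB1 library, replicate 2, was below sh-control replicate 1, so the groups overlapped, and the log2 fold change was 0.72 (SE 0.23, 95% interval 0.20 to 1.25, adjusted p 0.0591). CACNA2D2 (chromosome 3, 50362613 to 50504244, minus strand) had 59, 95 and 154 reads against 79, 121 and 39, at 2.56, 3.49 and 4.79 CPM and 3.17, 4.62 and 3.09 CPM. Its groups overlapped throughout, with a log2 fold change of 0.01 (95% interval −0.61 to 0.63, adjusted p 0.986 by edgeR).

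Several members lay close to the median of genes of like GC content. Among the 14331 genes whose log2 CPM averaged above 0, the median log2 fold change was −0.23 in the decile of genes poorest in G and C and 1.11 in the richest decile. CACNA1H, with exons of 66.4% GC, belonged to the richest decile and was 0.45 above its median. CACNB1 (58.4% GC) and CACNB3 (58.7% GC) were 0.12 and 0.25 above the median of 0.61 of their decile, whereas CACNA1G (59.3% GC) and CACNA2D2 (58.3% GC) of the same decile were 0.80 and 0.60 below it. CACNA1C (51.5% GC) was 1.22 above its decile, and CACNA2D1, at 37.7% GC the poorest member, was 0.95 above its own.

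**Figure D3:**
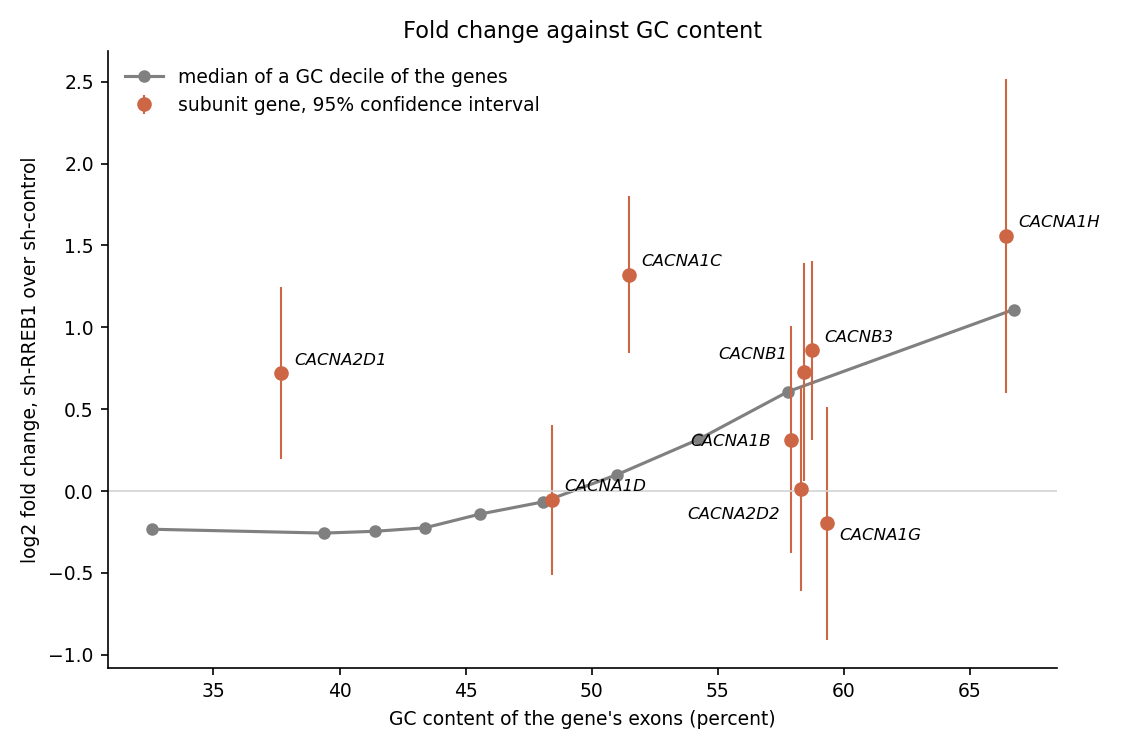
Log2 fold change of sh-RREB1 over sh-control against the GC content of a gene's exons (percent), with grey points for the median of each decile of the genes at the middle of its GC range and orange points with 95% confidence intervals for the 9 tested subunit genes. The grey points lie at −0.23 in the poorest decile and at 1.11 in the richest. CACNA2D1 and CACNA1C are the members whose intervals lie above the median of their decile, and the interval of CACNA1G lies below its own.

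A fit that removes the trend of each library with GC content and gene length was run beside the first. CACNA1C remained past both thresholds, at a log2 fold change of 1.10 (95% interval 0.75 to 1.44, adjusted p 0.000702), and it did so in 6 of 6 fits that left out one library. CACNA2D1 had 0.93 (95% interval 0.67 to 1.19, adjusted p 0.000352), short of a change of 1. CACNA1H had 0.04 (95% interval −0.51 to 0.59, adjusted p 0.933), CACNB1 0.01 (adjusted p 0.980) and CACNB3 0.09 (adjusted p 0.685). CACNA2D2 and CACNA1B changed sign, to −0.71 (adjusted p 0.00821) and −0.38 (adjusted p 0.230), and CACNA1G, below 0 in both fits, was at −1.02 (adjusted p 0.0152). This fit had 1 member past both thresholds, where 3.02% of all tested genes were, and the median of the 9 tested members was 0.01. The trend with GC content differed between the groups and also within sh-control. In the richest decile the median deviation of log2 CPM from a gene's mean was −1.30, −0.35 and −0.11 in sh-control replicates 1, 2 and 3. In sh-RREB1 replicates 1, 2 and 3 it was 0.49, 0.85 and 0.48. What part of the trend comes from the libraries and what part from the cells cannot be told apart.

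**Figure D4:**
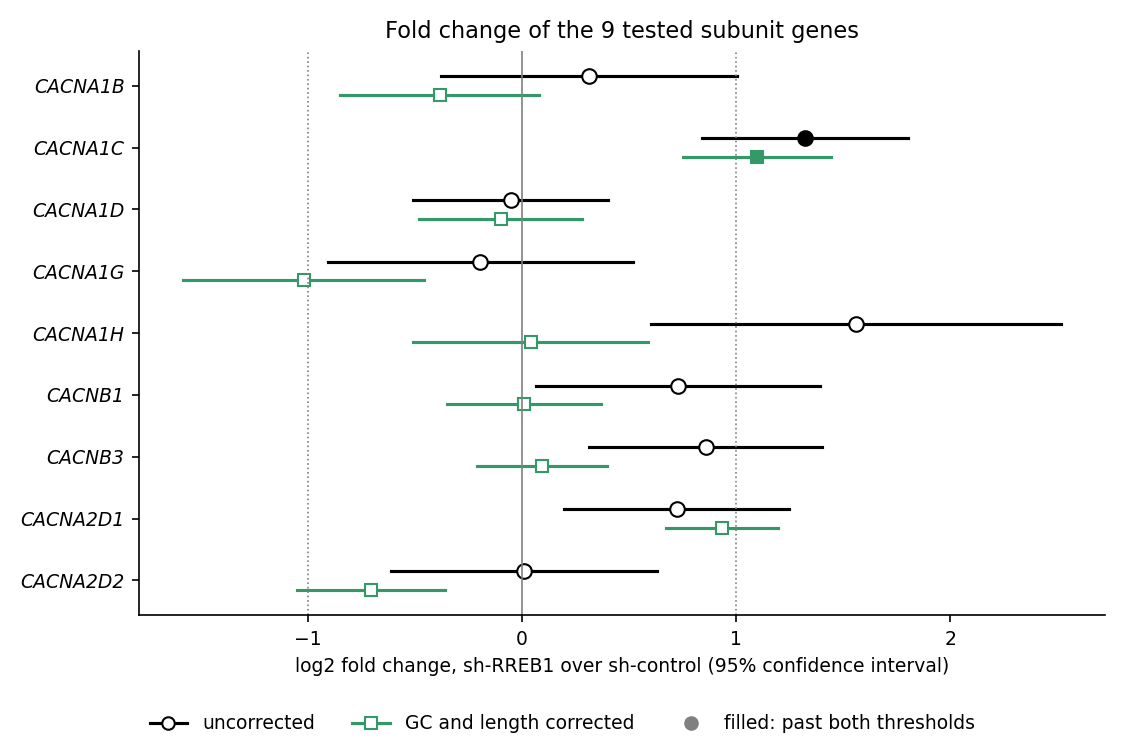
Log2 fold change of the 9 tested subunit genes, sh-RREB1 over sh-control, with 95% confidence intervals, from the uncorrected fit (black circles) and from the fit corrected for GC content and length (green squares), where filled symbols are past both thresholds and dotted lines mark a change of 1. CACNA1C is filled in both fits, and CACNA1H drops from 1.56 to 0.04.

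By the smallest root mean square difference of centred log2 CPM over the 6 libraries, the genes most like CACNA1H among 14594 compared were ASPSCR1 (0.21), SLC9A3-AS1 (0.23), FBXL6 (0.24), INSYN1 (0.24) and PTOV1 (0.24). The exons of INSYN1 hold 59.1% GC and those of the other 4 genes 64.5% to 66.9%, beside the 66.4% of CACNA1H. The genes most like CACNA1D, the member with the lowest log2 fold change among those with a mean of at least 1 CPM, were STX16 (0.07), the unnamed ENSG00000280383 (0.07), ETV6 (0.08), KCNQ1OT1 (0.08) and LINC01138 (0.08).

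The remaining 16 subunit genes of the channel family included 11 tested genes. Beside this list and those that follow stand 3.38% of all tested genes past both thresholds, and 3.02% after the GC correction. Nothing is read from the counts of the lists. CACNG4, a gamma subunit better known for guiding AMPA receptors, was past both thresholds and higher, with 7, 6 and 15 reads in the control libraries and 48, 39 and 21 in sh-RREB1 and a log2 fold change of 2.32 (SE 0.33, adjusted p 0.00418 by edgeR). It was past both in the GC-corrected fit, at 1.65 (adjusted p 0.00711), but in only 2 of 6 such fits that left out one library, with an adjusted p of up to 0.0360. In the uncorrected fits it stayed past both without sh-control replicate 1 or 3, and the adjusted p ran from 0.0125 to 0.0326 without each of the other libraries. CACNG7, a second gamma subunit, had 0 reads in all sh-control libraries and 5, 5 and 6 in sh-RREB1. It passed the read minimum through its sh-RREB1 reads alone, so its adjusted p is not given. With each sh-control library set to the floor of 3 reads, its sh-RREB1 mean was 2.60-fold higher, a lower bound that rests on few reads. CACNB4, the beta subunit with the most reads, had 676, 496 and 671 against 1298, 728 and 557 reads and a log2 fold change of 0.86 (adjusted p 0.0468), which became 1.04 (adjusted p 0.00182) and past both thresholds after the GC correction. With one library left out, it was past both in 3 of 6 corrected fits, at 0.88 to 1.25, and in 0 of 6 uncorrected ones. CACNB2, the beta subunit of heart muscle, was at 5.16, 4.70 and 5.26 CPM in the control libraries and 8.11, 7.60 and 8.55 CPM in sh-RREB1. Its log2 fold change was 0.68 (adjusted p 0.0224), and 0.82 after the GC correction (adjusted p 0.00122). It had 925 reads on its own strand and 1287 on the opposite one, and with both strands counted the change was 0.25 (adjusted p 0.408). The median log2 fold change of the 11 tested genes was 0.21, also with CACNG7 at its bound, and 0.23 after the correction.

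Proteins that bind the channels were tested as a list of 13 regulators, of which 11 passed the read minimum and 1 was past both thresholds. STAC, an adaptor that holds L-type channels at the membrane, had 13, 21 and 20 reads in the control libraries and 47, 75 and 26 in sh-RREB1, with a log2 fold change of 1.80 (SE 0.27, adjusted p 0.00519 by edgeR) and 1.89 after the GC correction. It stayed past both thresholds without sh-control replicate 1, had an adjusted p of 0.0149 to 0.0326 without each of the other libraries, and was past both in 6 of 6 such fits with the GC correction. CALM2, a calmodulin gene and the regulator with the most reads, had a log2 fold change of −0.49 (adjusted p 0.0320 by edgeR). The median of the list was 0.49 and became −0.24 after the correction.

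Calcium entering through these channels adds to that from stores and other routes. Among 16 tested store and entry channel genes, 2 were past both thresholds, beside 3.38% of all tested genes, and both were higher. They were ORAI2, a pore of store-operated entry, at 1.49 (adjusted p 0.00720), and ITPR3, an inositol trisphosphate receptor, at 1.35 (adjusted p 0.00938). Both stayed past the thresholds without sh-control replicate 1, while without each of the other libraries the adjusted p ran from 0.0114 to 0.0388 for ORAI2 and from 0.0133 to 0.0443 for ITPR3. In neither did the change reach 1 after the GC correction, at 0.84 and 0.55. TRPM7, the list's most read gene, was at −0.42 (adjusted p 0.0664). The median of the list was 0.32, and 0.21 after the correction.

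Of 12 pumps and exchangers, SLC8A1, the sodium-calcium exchanger that extrudes calcium from heart cells, was the one past both thresholds. It was at 22.9, 21.5 and 22.6 CPM in the control libraries and 46.8, 49.3 and 47.8 CPM in sh-RREB1. The replicates were tight and the groups far apart, with a log2 fold change of 1.10 (SE 0.12, adjusted p 0.00205) that was 1.30 after the GC correction. Its adjusted p was 0.0279 with sh-control replicate 2 left out, and 0.0119 and 0.0201 with sh-RREB1 replicates 1 and 3 left out in turn, it stayed past both thresholds without each of the other libraries, and it did so in 6 of 6 such fits with the correction. ATP2B1, a plasma membrane calcium pump and the most read gene of the list, was at −0.13 (adjusted p 0.502 by edgeR), and the median of the list was 0.06 and became −0.35 after the correction.

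Among 25 calcium-dependent enzymes and NFAT genes, CAMKK1, a kinase that activates CaM kinases, was past both thresholds and higher, and PRKCB, a conventional protein kinase C, was past both and lower. CAMKK1 was at 3.51, 6.46 and 7.84 CPM in the control libraries and 16.5, 23.2 and 17.6 CPM in sh-RREB1, with a log2 fold change of 1.68 (adjusted p 0.00718) and 1.04 after the GC correction. PRKCB went from 5.68, 6.10 and 4.88 CPM to 1.37, 1.53 and 2.06 CPM, with a log2 fold change of −1.78 (adjusted p 0.00321) and −1.73 after it. Both stayed past the thresholds without sh-control replicate 1 or 3, and without each of the other libraries the adjusted p ran from 0.0217 to 0.0423 for CAMKK1 and from 0.0128 to 0.0297 for PRKCB. With the GC correction 5 of 6 such fits for CAMKK1 and 6 of 6 for PRKCB were past both. NFATC3, the most read gene of the list, was at −0.27 (adjusted p 0.162), and the median of the list was −0.10 and became 0.07 after the correction. The uncorrected medians of the 5 lists, from −0.10 to 0.49, stand beside 0.01 for all tested genes, which became −0.03 after the correction.

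**Figure D5:**
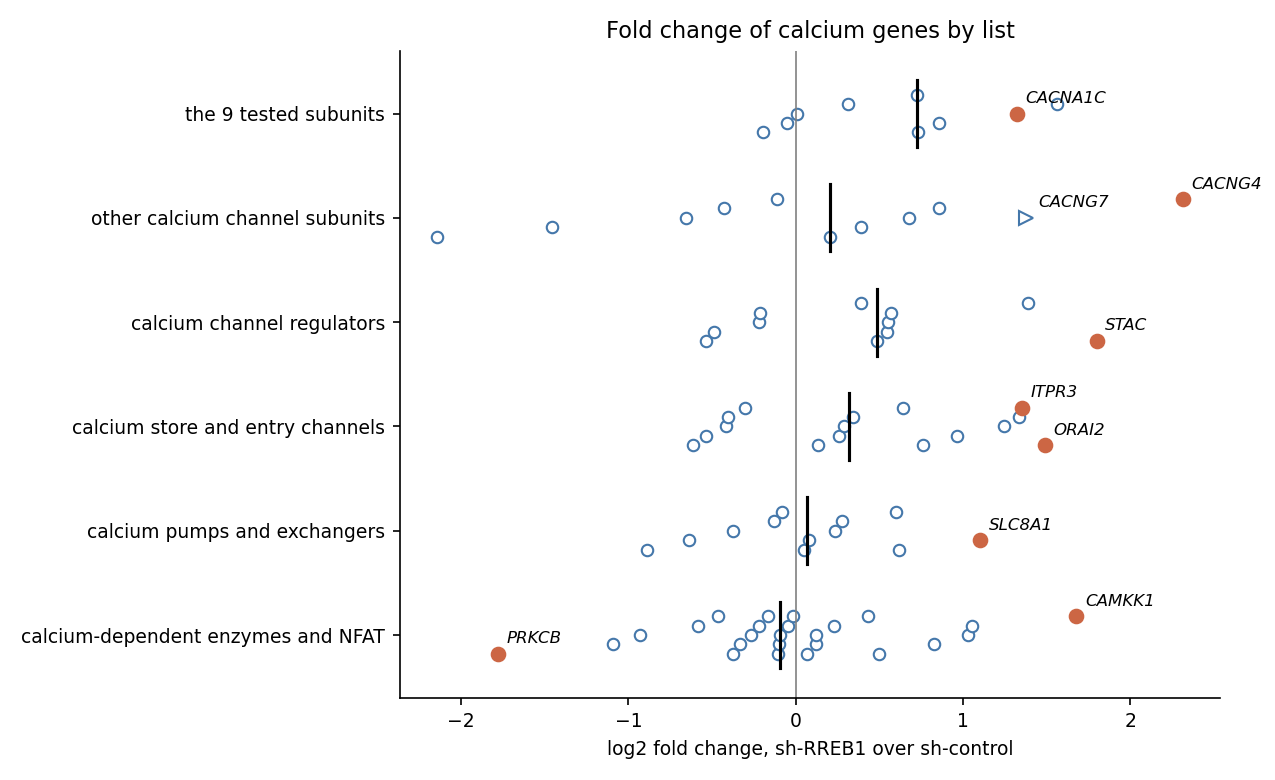
Log2 fold change, sh-RREB1 over sh-control, of each tested gene of the subunit group and of 5 lists of calcium genes, one row per list, with filled orange points for genes past both thresholds, black bars at the median of each list and an open triangle at the lower bound of CACNG7. PRKCB, at −1.78, is the filled point below 0.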

How the data were processed

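Total RNA libraries were made with a stranded Illumina kit. Per the labels and the study's methods, the authors mapped reads to hg38 with STAR, counted them per Gencode gene and deposited these raw counts, 1 table per library and 1 merged table. The deposited counts on the gene's strand were used, where several identifiers shared a symbol the most read one was kept, and genes with at least 10 reads in total were tested with edgeR 4.0.16 (R 4.3.3; TMM scaling, quasi-likelihood test, sh-RREB1 against sh-control, Benjamini-Hochberg adjustment over all tested genes). A gene was past both thresholds with an adjusted p below 0.01 and a log2 fold change above 1 in size. CPM are scaled by TMM. Lengths and GC content came from Gencode 44, and 98.67% of tested genes had both. The correction offsets a spline of log2 CPM on GC content and length in each library. DESeq2 1.42.0 and other alternatives are given in the closing section. With 12257054 to 33044061 reads on genes, 1 read is worth more in the shallowest library, sh-RREB1 replicate 3, where 3 reads equal 0.237 CPM. The members and lists were chosen with earlier results of these data known. Named genes are the members, RREB1, the genes past both thresholds and the most read gene of each list, and the 5 genes most like 2 members. CACNB2, CACNG7, VIM, COL1A1, ALB and PECAM1 were named after their values were seen. Protein sequences were not used here.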

Additional observations from a re-analysis of the deposited data

Results flagged for a closer look

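Reads on the strand opposite to a member are outside the measurement used for the comparison, and 4 members, CACNA1C, CACNA1D, CACNB3 and CACNA2D2, had more than 3 of them in every library. In CACNA1D and CACNA2D2 every sh-RREB1 library was also above every sh-control library. For how many of all genes this held on the opposite strand was not counted, and nothing is read from it. Over all genes, opposite-strand reads numbered 3923750 in sh-RREB1 replicate 3 and 1207964 to 1718516 in the other libraries. CACNA1D had an opposite-strand level of 3.93 CPM in its lowest sh-RREB1 library against 3.82 CPM in its highest sh-control library, and in all 574 reads against 1028 on its own strand, which is 35.8% of both. DCP1A and CHDH lie on the opposite strand of CACNA1D and overlap it by 18624 and 1399 bases. CACNA2D2 had an opposite-strand level of 0.884 CPM in its lowest sh-RREB1 library against 0.560 CPM in its highest sh-control library, and in all 104 reads against 547, or 16.0% of both. Where these reads come from was not tested.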

How the results depend on the processing

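Depth limits the members with few reads: CACNA1A was untestable, and CACNA1G, CACNA1B and CACNA1H rest on 145, 221 and 329 reads. With DESeq2, 1656 genes and 2 members were past both thresholds, with a minimum of 1 read 1829 genes, 2 members and 2 other subunits, with an adjusted p of 0.05 2053 genes, 2 members and 2 other subunits, and with the adjusted p of 0.01 alone 1282 genes. The second member was CACNA1H under DESeq2 (adjusted p 0.00395) and the minimum of 1 read (adjusted p 0.00217). In GC-corrected fits without sh-control replicate 1 or sh-RREB1 replicate 2, the second member was CACNA2D1, at 1.04 and 1.02. The labels tie same-numbered libraries by number alone. Correlations of their deviations were 0.49, 0.38 and −0.27, and those of differently numbered libraries ran from −0.55 to 0.55. Whether same-numbered libraries were paired cannot be told from these values. A replicate block gave 1707 genes and still 1 member. With the GC and length correction, 2 other subunits and 0 store and entry channels were past both thresholds, with and without the replicate block, and 3 members had an adjusted p below 0.01 (11.2% of all tested genes did), an alternative added after seeing the data. These 3 were CACNA1C and CACNA2D1, which were higher, and CACNA2D2, which was lower. That correction turned CACNA1B to −0.38 (−0.37 with the block), CACNA2D2 to −0.71 (−0.70), ATP2B1 to 0.091 (0.091) and, with the block only, CACNA1H to −0.070. CACNA2D2 was also at −0.0070 under DESeq2, −0.0066 with its size factors and −0.083 with upper-quartile scaling, and CACNA1D at 0.0043 with filterByExpr. Counting both strands left 1 store and entry channel past both and a CACNA1A share of 0.458% in sh-RREB1. Dividing by canonical transcript length, also added after seeing the data, gave mean shares in sh-control and sh-RREB1 of 0.486% and 0.0840% for CACNA1A, 9.57% and 9.01% for CACNA1B, 10.4% and 19.8% for CACNA1C, and 8.38% and 5.59% for CACNA1G, with 40.8% for CACNA1D and 21.4% for CACNA1H in sh-RREB1. Undivided reads gave 0.432% and 0.0729%, 9.64% and 8.78%, 14.6% and 27.0%, and 7.42% and 4.78%, with 38.0% and 17.5%. Leaving out one library, with or without the GC correction, gave 8 to 1120 genes past both thresholds, 0 to 2 members, 0 to 2 other subunits, 0 to 1 regulators, 0 to 2 store and entry channels, 0 to 1 pumps and exchangers and 0 to 3 enzymes and NFAT genes. The lowest and highest log2 fold changes over these fits were −0.45 and 0.55 for CACNA1B, −0.24 and 0.095 for CACNA1D, −1.11 and 0.053 for CACNA1G, −0.15 and 1.85 for CACNA1H, −0.79 and 0.24 for CACNA2D2, −0.053 and 0.89 for CACNB1, −0.018 and 1.08 for CACNB3, −0.21 and 0.11 for ATP2B1, −0.011 and 1.81 for ASPSCR1 and −0.15 and 1.79 for FBXL6. CACNA1C kept its direction under all 22 alternatives, at 1.04 to 1.43, and was past both thresholds in 17. The causes were not tested.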
